A study of Mus musculus with 13 samples.

Results

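Cyclins, cyclin-dependent kinases (CDKs) and CDK inhibitors were examined in resident brain myeloid cells of PS2APP;Trem2ko and PS2APP;Trem2wt mice. The genes are a list of 10 out of the 52636 in the data, set by name: the D-type cyclins Ccnd1, Ccnd2 and Ccnd3, the kinases Cdk4 and Cdk6, the inhibitors Cdkn1a, Cdkn1b and Cdkn2c, the pocket protein gene Rb1, and cyclin A2 (Ccna2). All 10 were found by Ensembl identifier and all 10 passed the filter on low counts. RNA came from 13 mice aged 14 to 15 months, each of them 1 replicate: 7 were PS2APP;Trem2wt, with 2 males among them, and 6 were PS2APP;Trem2ko, with 1 male. Every mouse carried the PS2APP transgenes, which encode human mutant presenilin 2 and amyloid precursor protein and lead to β-amyloid plaques, and no mouse without them was in these data. The Trem2ko group carried the null allele Trem2tm1(KOMP)Vlcg, made on C57BL/6N and crossed into PS2APP mice on C57BL/6J, and it was not limited to myeloid cells. Cells of cortex and hippocampus were sorted as CD11b+, CD45+, Ccr2- and Ly6g-, a gate that holds microglia together with a small share of perivascular macrophages.

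A cell leaves its resting state when mitogens raise D-type cyclins, which bind CDK4 or CDK6 and phosphorylate the retinoblastoma protein encoded by Rb1. Phosphorylated RB releases E2F factors, which switch on genes of DNA replication and, among them, Ccna2, whose product drives S phase and entry into mitosis with CDK2 and CDK1. INK4 proteins such as the product of Cdkn2c block CDK4 and CDK6, and the CIP/KIP proteins encoded by Cdkn1a and Cdkn1b bind cyclin-CDK complexes more widely. Microglia of the healthy adult brain divide rarely, and they divide more often around β-amyloid plaques.

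Total counts on genes ranged from 26120961 to 120569609 per mouse, so that 3 counts, taken as the limit of detection for counting error, were worth 0.0249 to 0.115 CPM (counts scaled to the library total). Trem2 checked the labels: its level was 818 to 1244 nRPKM in Trem2wt mice and 0.393 to 2.29 nRPKM in Trem2ko mice. Here nRPKM is the authors' RPKM, a read count scaled to gene length and depth, adjusted by a size factor. The 6 microglia markers summed to between 12917 and 15843 nRPKM in Trem2wt mice and between 13215 and 15127 nRPKM in Trem2ko mice. Markers of cells outside the gate were low but not absent. Neutrophil markers summed to 13.1 to 246 nRPKM in Trem2wt mice and 0.148 to 40.3 nRPKM in Trem2ko mice, and the highest value was that of the Trem2wt male with 26120961 counts.

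**Figure D1:**
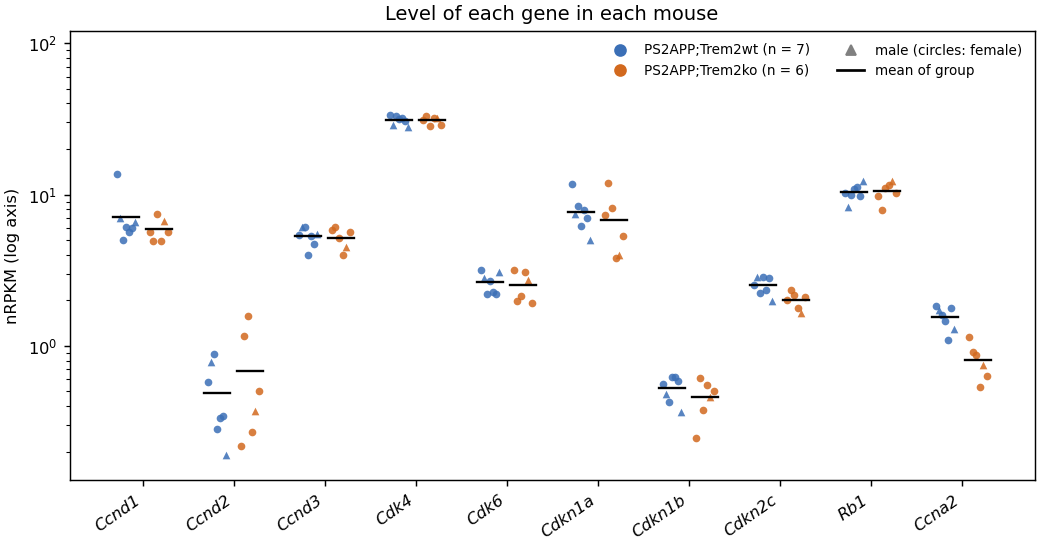
Level of the 10 genes in nRPKM on a log axis, with 1 point per mouse (circles females, triangles males), 7 PS2APP;Trem2wt mice in blue and 6 PS2APP;Trem2ko mice in orange, and a black line at each group's mean. Cdk4 lies highest at 28.1 to 33.4 nRPKM, Ccnd2 is the most scattered, and only for Ccna2 are 5 of 6 Trem2ko mice below all Trem2wt mice.

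The levels of the 10 genes spanned from 31.1 nRPKM for Cdk4 to 0.493 nRPKM for Cdkn1b, as means over the 13 mice. Rb1 followed Cdk4 with 10.4 nRPKM, then Cdkn1a with 7.24, Ccnd1 with 6.56, Ccnd3 with 5.26, Cdk6 with 2.58, Cdkn2c with 2.29, Ccna2 with 1.20 and Ccnd2 with 0.577 nRPKM. Only 2 steps in this order had ranges that did not meet, that from Cdk4 to Rb1 and that from Ccnd3 to Cdk6. Cdkn2c was above Ccna2 in 13 of 13 mice, whereas Cdk6 was above Cdkn2c in 5 of 13 and Ccnd2 above Cdkn1b in 6 of 13. As means per length, Cdk4 and Rb1 were thus above every cyclin of the list.

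Of the 10 genes, 1 was lower in PS2APP;Trem2ko microglia and none was higher, with a call made at adjusted p values up to 0.05 (edgeR's quasi-likelihood test with Benjamini-Hochberg (BH) adjustment over all 17086 genes tested). Over all genes tested, 1.53% were called lower and 0.503% higher, 2.04% in all. None of the 10 passed with a change of 2-fold or more, as did 0.691% of all genes in the lower and 0.0527% in the higher direction. For none of the 10 did the genotypes separate without overlap, as they did for 1.22% of genes with lower and 0.421% with higher Trem2ko values. Before adjustment (p up to 0.05), 2 of the 10 were lower and none was higher in edgeR, voom+limma and DESeq2 alike, and in edgeR the 2 were Ccna2 and Cdkn2c. In edgeR, 7.56% of all genes tested were lower and 7.29% higher by this looser criterion. The median log2 fold change was -0.13 over the 10 genes and 0.0039 over all genes, and the median size of the change regardless of sign was 0.19 and 0.16. In bulk RNA, fewer dividing cells and less transcript per dividing cell cannot be told apart.

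**Figure D2:**
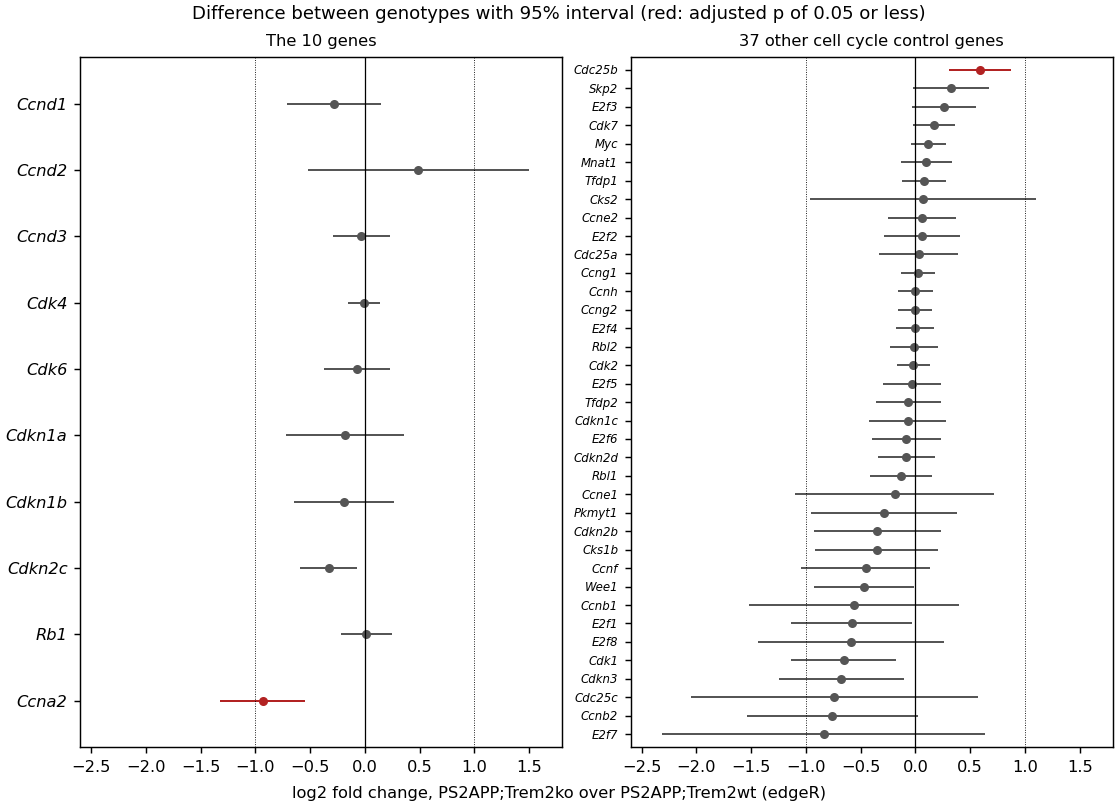
Log2 fold change of PS2APP;Trem2ko over PS2APP;Trem2wt from edgeR (points) with its 95% interval (lines) for the 10 genes on the left and 37 other cell cycle control genes on the right. Dotted lines mark a 2-fold change, and red marks an adjusted p of 0.05 or less, which Ccna2 (-0.93) and Cdc25b (0.59) reached.

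Ccna2 (ENSMUSG00000027715, chromosome 3 of GRCm38, 36564865 to 36572150, minus strand) was the gene that fell. It had 1.09 nRPKM in the lowest Trem2wt mouse, a median of 1.60 and 1.85 in the highest, and 0.532, 0.809 and 1.15 nRPKM in Trem2ko mice. The highest Trem2ko mouse lay just above the lowest Trem2wt mouse, and the other 5 were below every Trem2wt mouse. Ccna2 was 1.91-fold lower (log2 fold change -0.93, SE 0.18, 95% interval -1.31 to -0.56, edgeR adjusted p = 0.0110), so it did not pass a 2-fold threshold. Its counts were 204 to 759 per Trem2wt mouse and 137 to 744 per Trem2ko mouse. With the 10 females alone the log2 fold change was also -0.93, and the adjusted p from edgeR rose to 0.0587. On log2(nRPKM + 1), a scale that compresses low levels, it was -0.50.

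Exons of Ccna2 overlap those of Exosc9, a gene of the RNA exosome on the opposite strand, over 510 bases, or 12.5% of the exonic bases of Ccna2. The library kit did not mark strand, so reads in this stretch cannot be assigned with certainty. Exosc9 had 11.7 nRPKM in Trem2wt and 12.7 nRPKM in Trem2ko mice as group means, with a log2 fold change of 0.12 (SE 0.08, edgeR adjusted p = 0.555). It was thus well above Ccna2, with group means of 1.54 and 0.806 nRPKM. How many reads counted for Ccna2 came from this stretch of Exosc9 was not tested, nor was their part in the fold change of Ccna2.

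**Figure D3:**
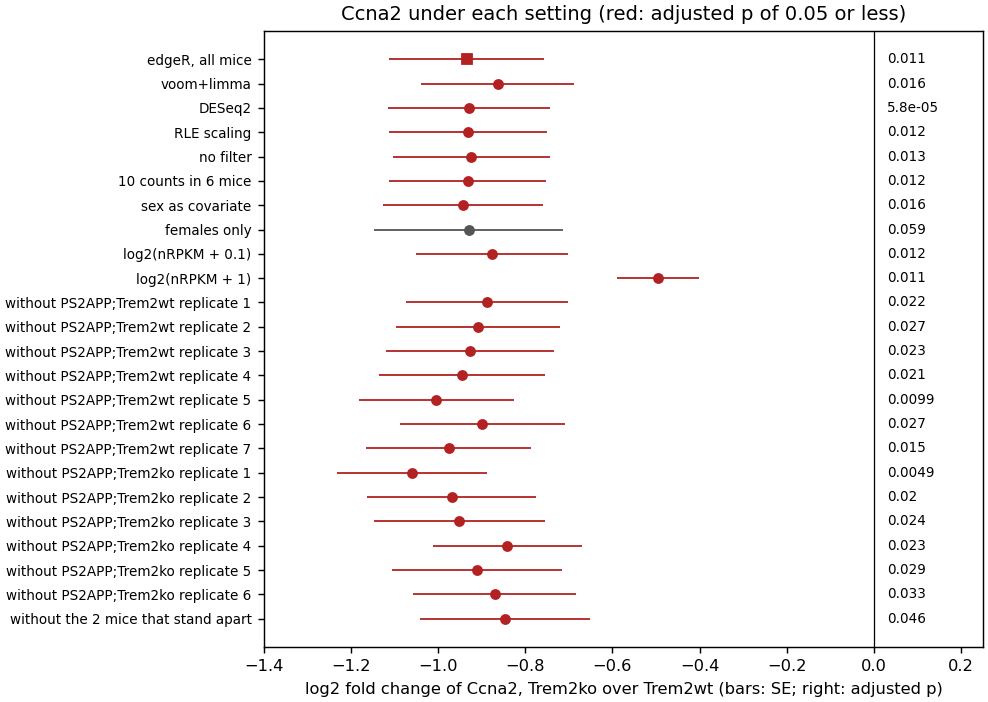
Log2 fold change of Ccna2 (points) with its SE (bars) in edgeR with all 13 mice (square) and under 23 other settings, with the adjusted p of each at the right. Red marks an adjusted p of 0.05 or less, which all settings reached except the analysis of females alone (0.0587).

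By likeness of pattern, measured as Pearson's r to Ccna2 of log2 CPM centred on each genotype's mean over the 13 mice, the 5 closest of 13122 genes were Plekha5 (0.86), Tk1 (0.86), Zfp248 (0.86), Ube2c (0.85) and Slc15a3 (0.85). No p was computed for this likeness, and whether it exceeds chance among 13122 genes was not tested. Tk1 encodes thymidine kinase of S phase and Ube2c a ubiquitin-conjugating enzyme of mitosis. As group means, Tk1 had 1.18 nRPKM in Trem2wt and 0.780 nRPKM in Trem2ko mice (log2 fold change -0.59, edgeR adjusted p = 0.376). Ube2c had 0.434 and 0.216 nRPKM (log2 fold change -0.99, edgeR adjusted p = 0.136). Plekha5, Zfp248 and Slc15a3 did not share this direction or size, with log2 fold changes of 0.12, 0.26 and -0.041 (edgeR adjusted p = 0.784, 0.619 and 0.924). None of the 5 passed the threshold.

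The kinase partners of cyclin A2 are named here after their values were seen. Cdk1, the mitotic kinase, had 1.06, 1.36 and 2.14 nRPKM in Trem2wt mice (lowest, median and highest) and 0.506, 0.955 and 1.50 nRPKM in Trem2ko mice. For Cdk1, 5 of 6 Trem2ko mice were below every Trem2wt mouse, with a log2 fold change of -0.66 (SE 0.22, edgeR adjusted p = 0.164). Cdk2, its S-phase relative, was much steadier, at 7.54 to 9.22 nRPKM in Trem2wt and 8.09 to 8.62 nRPKM in Trem2ko mice. The interval of its fold change, Trem2ko over Trem2wt, was 0.897 to 1.09.

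The D-type cyclins, which link mitogen signals to the CDKs, did not pass the test in either direction. Ccnd1 (chromosome 7, 144929931 to 144939925, minus strand) had 5.0, 6.06 and 13.7 nRPKM in Trem2wt mice and 4.95, 5.66 and 7.40 nRPKM in Trem2ko mice. The ranges overlapped, and 1 Trem2wt female stood alone at 13.7 nRPKM, with the next mouse at 6.99. The log2 fold change of Ccnd1 was -0.28 (SE 0.20, edgeR adjusted p = 0.552), and without that female it was -0.044. Of the exonic bases of Ccnd1, 23.4% overlap LTO1 on the opposite strand, which had 3.84 and 3.91 nRPKM in Trem2wt and Trem2ko mice and a log2 fold change of 0.025.

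Ccnd3 (chromosome 17, 47505051 to 47599691, plus strand), the D-type cyclin best known from lymphocytes, had 4.02, 5.38 and 6.14 nRPKM in Trem2wt mice and 3.98, 5.41 and 6.10 nRPKM in Trem2ko mice. The groups covered almost the same range. The fold change, Trem2ko over Trem2wt, had a 95% interval of 0.821 to 1.16, and its sign changed with the mice and settings used.

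Ccnd2 (chromosome 6, 127125162 to 127152193, minus strand) was the least abundant D-type cyclin and the most variable of the 10 genes. It had 0.190, 0.346 and 0.891 nRPKM in Trem2wt mice and 0.218, 0.439 and 1.57 nRPKM in Trem2ko mice. Of the Trem2ko mice, 2 were above every Trem2wt mouse and the others lay within the Trem2wt range. The log2 fold change was 0.49 (SE 0.47, edgeR adjusted p = 0.688), with an interval from -0.51 to 1.49 that leaves room for changes over 2-fold. It rested on single mice and on the tool: it was 0.064 without the highest Trem2ko mouse (replicate 3), 0.26 without Trem2ko replicate 2, 0.71 without Trem2wt replicate 3, and 0.19 with voom+limma. Within genotypes, the SD of Ccnd2 was 0.97 on the log2 scale, higher than in 89.8% of genes tested.

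**Figure D4:**
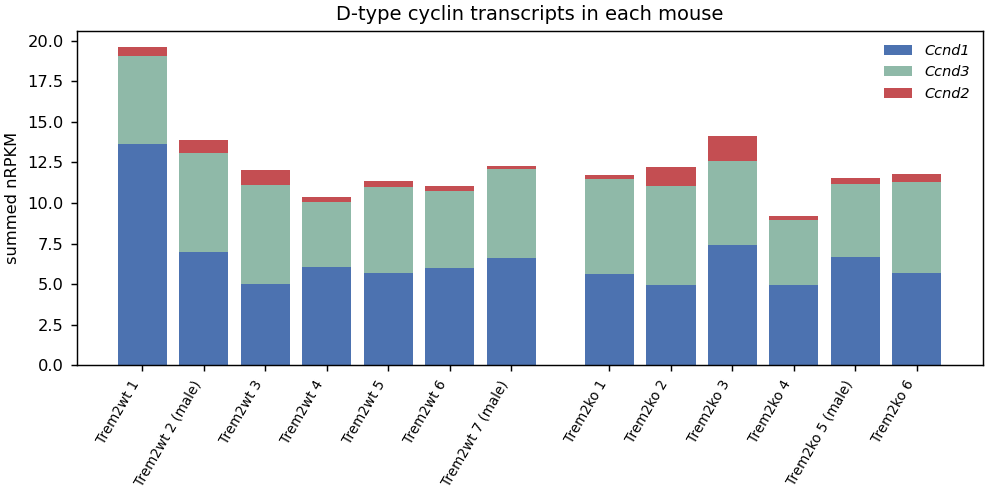
Stacked bars of Ccnd1 (blue), Ccnd3 (green) and Ccnd2 (red) in nRPKM for each of the 13 mice, Trem2wt at the left and Trem2ko at the right. Ccnd1 and Ccnd3 make up most of every bar, and Ccnd2 is 1.55% to 11.1% of the sum.

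Set side by side per length, Ccnd1 and Ccnd3 shared most of the D-type cyclin transcript in both genotypes. Ccnd1 made up 54.0% ± 8.6 (SD, n = 7) of the summed nRPKM in Trem2wt and 50.2% ± 6.0 (SD, n = 6) in Trem2ko mice. Ccnd3 made up 42.2% ± 7.5 (SD, n = 7) and 44.4% ± 5.7 (SD, n = 6). For both genes the group means lay within 1 SD of each other.

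Ccnd2 levels were set beside the summed markers of other cells because some mice stood apart, a comparison chosen after the data were seen. Centred on genotype means over the 13 mice, Ccnd2 went with the sum of 6 monocyte markers (Pearson's r = 0.73, permutation p = 0.00487; Spearman's rho = 0.67, permutation p = 0.0127). After adjustment over the 90 relations computed these were 0.249 and 0.499, so the relation did not pass. Without the 2 mice farthest from the median of Ccnd2, r was 0.64. The monocyte sum was 2.41 to 21.7 nRPKM in Trem2wt and 3.09 to 19.2 nRPKM in Trem2ko mice. For the 6 T and B cell markers, r was 0.61 (permutation p = 0.0352, adjusted 0.453) and rho was 0.71 (permutation p = 0.0110, adjusted 0.499), with sums of 0.0520 to 1.63 nRPKM and 0.145 to 3.05 nRPKM. Without the same 2 mice, r was 0.56. Sums of markers listed for non-immune cells went with Ccnd2 as well, and no difference between these relations was tested. For oligodendrocytes and precursors r was 0.68 (permutation p = 0.0146, adjusted 0.436) and rho 0.62, and r without those 2 mice was 0.82, the highest of the 9 measures compared with Ccnd2. For astrocytes r was 0.63 (permutation p = 0.0290, adjusted 0.436) and rho 0.65. The largest part of the astrocyte sum was Slc1a3, with 46.9 nRPKM in Trem2wt and 57.8 nRPKM in Trem2ko mice as group means. The SD of Slc1a3 within genotypes was 0.13 on the log2 scale, and which cells it came from was not tested. The sort removed Ccr2+ cells, and Ccr2 is itself 1 of the 6 monocyte markers, with 0.523 to 2.10 nRPKM in Trem2wt and 0.831 to 5.13 nRPKM in Trem2ko mice. The part of any of these cells in the Ccnd2 values was not tested.

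**Figure D5:**
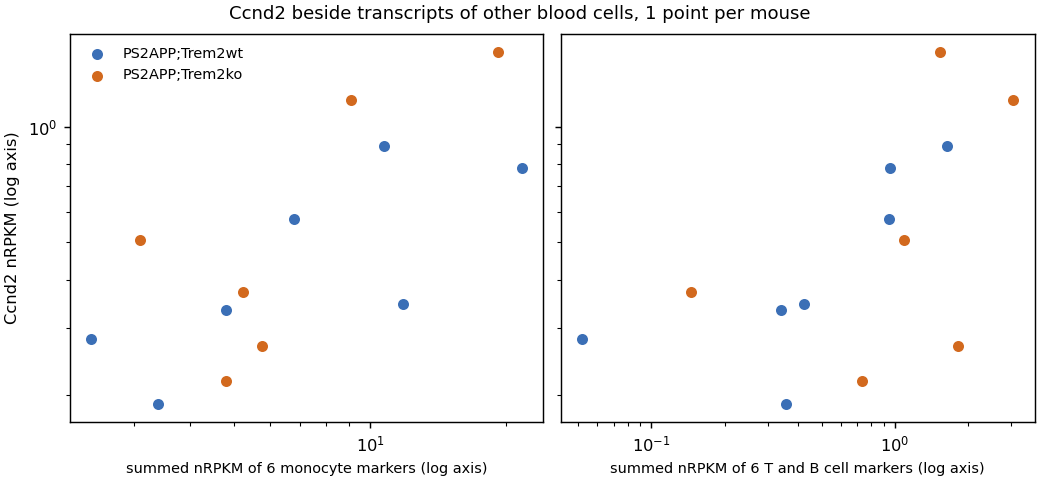
Ccnd2 in nRPKM against the summed nRPKM of 6 monocyte markers (left) and 6 T and B cell markers (right), all on log axes, with 1 point per mouse (7 PS2APP;Trem2wt in blue, 6 PS2APP;Trem2ko in orange). The highest Ccnd2 value, 1.57 nRPKM in a Trem2ko mouse, stands beside a monocyte sum of 19.2 nRPKM.

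Cdk4 (chromosome 10, 127063534 to 127067920, plus strand), a G1 kinase, had the highest transcript level and was the steadiest of the 10 genes. It had 28.1, 31.5 and 33.4 nRPKM in Trem2wt mice and 28.3, 31.5 and 33.3 nRPKM in Trem2ko mice, and the groups covered the same range. The fold change, Trem2ko over Trem2wt, had a 95% interval of 0.905 to 1.09 (edgeR adjusted p = 0.968), which excludes changes of 2-fold. The SD of Cdk4 within genotypes was 0.097 on the log2 scale, and only 2.52% of genes tested had an SD as low or lower. Cdk2, outside the list, had an SD of 0.084. Counts of Cdk4 were 2276 to 11389 per mouse, and the part of counting depth in its low SD was not tested. Of its exonic bases, 19.7% overlap Tspan31 on the opposite strand, which had 84.3 nRPKM in Trem2wt and 80.8 nRPKM in Trem2ko mice as group means and a log2 fold change of -0.06 (SE 0.06). Tspan31 was thus well above Cdk4, and how many reads counted for Cdk4 came from this stretch of Tspan31 was not tested.

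Cdk6 (chromosome 5, 3341485 to 3531008, plus strand), the other partner of D-type cyclins, had 2.19, 2.70 and 3.18 nRPKM in Trem2wt mice and 1.93, 2.45 and 3.18 nRPKM in Trem2ko mice. In Trem2ko mice 3 values were below every Trem2wt mouse and 1 was above, so the groups overlapped. The fold change had an interval of 0.777 to 1.17. The ratio of Cdk4 to Cdk6 nRPKM was 12.1 ± 2.3 (SD, n = 7) in Trem2wt and 12.8 ± 2.7 (SD, n = 6) in Trem2ko mice.

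The stretch before the Cdk4 start is shown because this gene was both the highest and the steadiest of the list. The table of RefSeq promoters on GRCm38.p6 holds 9 windows for 6 of the 10 genes. It has none for Ccna2, Ccnd1, Ccnd2 and Rb1. Each window was searched over the 250 bases before the start for CACGTG, the E-box that MYC and related factors bind, which reads the same on both strands. It was also searched on both strands for TTTCGCG or TTTGGCG, cores of E2F sites, and for TTTGAA, the core of the CHR element of G2/M genes. Capitals mark CACGTG for Cdk4 (chr10:127063285-127063534, plus strand) and the E2F core for the second start of Cdkn2c (chr4:109665373-109665622, minus strand). Cdkn2c was chosen because it had the lowest p of the list after Ccna2. The window of its second start is shown because it held the E2F core, which the window of its first start did not.
Cdk4: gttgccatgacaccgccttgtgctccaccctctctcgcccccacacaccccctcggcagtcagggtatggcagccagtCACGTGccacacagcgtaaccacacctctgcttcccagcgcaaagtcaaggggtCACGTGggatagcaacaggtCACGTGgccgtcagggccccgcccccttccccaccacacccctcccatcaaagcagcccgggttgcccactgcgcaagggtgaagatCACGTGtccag
Cdkn2c: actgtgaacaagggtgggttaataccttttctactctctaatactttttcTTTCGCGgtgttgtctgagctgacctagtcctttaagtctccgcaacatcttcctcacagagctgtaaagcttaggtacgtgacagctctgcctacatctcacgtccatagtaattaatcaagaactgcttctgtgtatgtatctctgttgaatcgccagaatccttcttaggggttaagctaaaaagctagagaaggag

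The Cdk4 window held 4 copies of CACGTG. Of all 32851 windows in the table, 6.02% held at least 1 copy and 7 held 4 or more. Among the other windows of the list, that of Cdk6 held 1 copy. The E2F core occurred in 1.93% of all windows and in 1 of the 9, and TTTGAA in 16.0% of all windows and in none of the 9. A match is a description of the letters and does not show that a factor binds there. Myc, named here after its values were seen, had 19.2 to 25.8 nRPKM in Trem2wt and 22.6 to 28.0 nRPKM in Trem2ko mice, a log2 fold change of 0.12 (SE 0.07, edgeR adjusted p = 0.484).

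The CDK inhibitors had negative log2 fold changes, and none passed the test. Cdkn2c (chromosome 4, 109660876 to 109667189, minus strand), the INK4 gene of the list, had 1.98, 2.55 and 2.87 nRPKM in Trem2wt mice and 1.65, 2.05 and 2.34 nRPKM in Trem2ko mice. The ranges overlapped, with 2 of 6 Trem2ko mice below every Trem2wt mouse. The log2 fold change was -0.33 (SE 0.12, 95% interval -0.58 to -0.08, unadjusted p = 0.0139 and edgeR adjusted p = 0.190). Libraries of Trem2ko mice had the higher median total count, and the part of depth in this difference was not tested. No 50-base word of the transcripts of Cdkn2c or Cdkn1b was found in another gene.

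Cdkn1a (chromosome 17, 29090976 to 29100727, plus strand), a textbook target of p53, had 5.03, 7.39 and 11.7 nRPKM in Trem2wt mice and 3.83, 6.33 and 11.9 nRPKM in Trem2ko mice. Trem2ko mice lay both below and above the whole Trem2wt range, 2 of them below and 1 above. The log2 fold change was -0.18 (SE 0.25, edgeR adjusted p = 0.791), and the SD within genotypes was 0.51 on the log2 scale. Leaving out 1 mouse moved it between -0.42 (without Trem2ko replicate 2, the highest) and -0.052 (without Trem2wt replicate 1), and it passed in none of these fits.

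Cdkn1b (chromosome 6, 134920401 to 134925513, plus strand), which helps to hold cells in quiescence, was the lowest of the 10 genes with 84 to 346 counts per mouse. It had 0.368, 0.559 and 0.626 nRPKM in Trem2wt mice and 0.245, 0.479 and 0.612 nRPKM in Trem2ko mice. The groups overlapped, and the log2 fold change was -0.19 (SE 0.21, edgeR adjusted p = 0.725). In the summed nRPKM of the 3 inhibitors, Cdkn1a made up 70.9% ± 5.3 (SD, n = 7) in Trem2wt and 71.3% ± 7.2 (SD, n = 6) in Trem2ko mice.

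Rb1 (chromosome 14, 73183673 to 73325822, minus strand), the substrate of the G1 kinases, had 8.34, 10.3 and 12.4 nRPKM in Trem2wt mice and 7.91, 10.6 and 12.3 nRPKM in Trem2ko mice. The groups overlapped along nearly their whole range, and the fold change had an interval of 0.863 to 1.18. Lpar6 and Rcbtb2, both on the opposite strand, cover 6.78% and 8.11% of its exonic bases. As group means, Lpar6 had 33.8 and 38.3 nRPKM and Rcbtb2 39.8 and 47.6 nRPKM in Trem2wt and Trem2ko mice, both above Rb1. Rcbtb2 was higher in Trem2ko mice, with a log2 fold change of 0.26 (SE 0.06, edgeR adjusted p = 0.0389), and Lpar6 had a log2 fold change of 0.18 (SE 0.11, edgeR adjusted p = 0.489).

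A further 40 genes of cell cycle control (other cyclins, CDKs and inhibitors, pocket proteins, E2F and DP factors, CDC25 phosphatases and their opposing kinases) were counted, of which 37 passed the filter. In edgeR 1 was higher, Cdc25b, and none was lower, while before adjustment 4 were lower and 1 was higher. Of all genes tested, edgeR called 0.503% higher and 1.53% lower. Before adjustment, 7.29% of all genes were higher and 7.56% lower. Within the list, voom+limma gave 0 lower and 1 higher, and DESeq2 gave the same numbers. The median log2 fold change was -0.07. Single log2 fold changes ran from -0.84 to 0.59, with 25 below 0 and 12 above. Among all genes tested, 8420 were below 0 and 8666 above.

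Cdc25b, a phosphatase that activates CDKs at the entry to mitosis, had 1.06, 1.25 and 1.49 nRPKM in Trem2wt mice and 1.36, 1.90 and 2.23 nRPKM in Trem2ko mice. Of the Trem2ko mice, 5 were above every Trem2wt mouse. The fold change, Trem2ko over Trem2wt, was 1.50 (log2 fold change 0.59, SE 0.13, edgeR adjusted p = 0.0260), the opposite direction to Ccna2. The call held in 8 of the 13 analyses that left out 1 mouse, where the adjusted p from edgeR was 0.0112 to 0.0627. In females alone the adjusted p from edgeR was 0.139, with a log2 fold change of 0.49.

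A p53 list of 20 genes held targets of p53 without Cdkn1a, and also Trp53, which encodes p53, and its regulator Mdm4. Of these, 18 were tested, and edgeR called none lower and none higher (unadjusted, 3 lower and 2 higher). Before adjustment, 7.56% of all genes were lower and 7.29% higher. Within the list, voom+limma called 1 lower and 1 higher, and DESeq2 called 2 of each. Phlda3, an inhibitor of AKT, had 1.51 to 3.30 nRPKM in Trem2wt and 0.0168 to 1.04 nRPKM in Trem2ko mice, and the groups did not overlap. The same held for 1.22% of all genes tested, with lower Trem2ko values. The log2 fold change of Phlda3 was -2.07 (SE 0.53, edgeR adjusted p = 0.0582), and its adjusted p ranged from 0.00155 to 0.138 over the other settings. Mdm4, a negative regulator of p53, had a log2 fold change of 0.39 (SE 0.10, edgeR adjusted p = 0.0535), and its adjusted p was 0.00592 to 0.118 over the other settings.

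All 10 proliferation markers had negative log2 fold changes, between -0.81 and -0.18 with a median of -0.39, and edgeR called none. Of all 17086 genes tested, 8420 had a negative log2 fold change. Before adjustment, edgeR gave 3 of the 10 markers as lower, beside 7.56% of all genes. Voom+limma called none and DESeq2 called 1, Mcm5. Mcm5, a subunit of the replicative helicase, had 4.23 to 5.88 nRPKM in Trem2wt and 2.31 to 4.10 nRPKM in Trem2ko mice, without overlap. Its log2 fold change was -0.48 (SE 0.13, edgeR adjusted p = 0.0680). Of all genes tested, 1.22% were without overlap and lower in Trem2ko mice. Tyms, which makes thymidylate for DNA synthesis, had a log2 fold change of -0.42 (SE 0.14, edgeR adjusted p = 0.146).

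Sex was compared in a model with genotype, over 10 females and 3 males. None of the 10 genes differed at an adjusted p of 0.05 or less or at an unadjusted one in edgeR, and 0.0234% of all genes tested did at the adjusted threshold. Voom+limma gave none at the adjusted threshold as well. The lowest p was that of Cdkn1a, with 7.78 nRPKM in females and 5.47 nRPKM in males as means and a log2 difference, male minus female, of -0.57 (95% interval -1.18 to 0.03, edgeR adjusted p = 0.734).

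Among themselves, the 10 genes were compared over the 13 mice after centring on genotype means. None of the 45 pairs passed after adjustment. By Pearson's r the strongest pair was Cdkn2c and Rb1, with r = -0.74 (permutation p = 0.0065, adjusted 0.292) and Spearman's rho = -0.68 (permutation p = 0.0169, adjusted 0.254). Without the 2 mice farthest from the median of Cdkn2c, r was -0.55. By Spearman's rho 2 pairs with Ccna2 were stronger. Ccna2 and Cdkn1a had rho = 0.73 (permutation p = 0.0166, adjusted 0.254) and r = 0.61 (permutation p = 0.0516, adjusted 0.332). Ccna2 and Rb1 had rho = -0.71 (permutation p = 0.0148, adjusted 0.254) and r = -0.57 (permutation p = 0.0590, adjusted 0.332). Without the 2 mice farthest from the median of Ccna2, r was 0.63 and -0.51.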

How the data were processed

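The authors deposited 1 table per mouse, with whole read counts per Ensembl gene (unique alignments) and nRPKM, an RPKM adjusted by a DESeq-type size factor. SMART-seq v4 libraries were read as single ends of 50 bases and aligned to GRCm38 with GSNAP. The kit does not mark strand, and use of strand in counting is not given in the sources used here. The members and lists were chosen with earlier results of these data known. Names and positions are from GENCODE M21, and overlaps with other genes were taken from its exons and 50-base transcript words.

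Counts were tested with edgeR 4.0.16 (R 4.3.3): filterByExpr by genotype (17086 genes kept), TMM, glmQLFit and glmQLFTest without covariate, Benjamini-Hochberg adjustment. The SE is the log2 fold change divided by the square root of F. The study's tool, voom+limma (limma 3.58.1), and DESeq2 1.42.0 were alternatives, beside RLE scaling, no filter, 10 counts in 6 mice, sex as covariate, the females by themselves, limma with trend on log2(nRPKM + 0.1) or log2(nRPKM + 1), each mouse left out, and, added after the data were seen, 2 mice left out together. Correlations used log2 CPM (prior count 2) and 100000 permutations within genotype. Named were all members, Trem2, list genes past the threshold or else the 2 with the smallest p per list, and the 5 genes most like Ccna2; others are marked as named after their values were seen. The fits were tested on simulated data, where edgeR called 60.8% of changes of log2 size 1 and 84.4% of those of size 2. A gene that was not called may therefore still differ. Relations to marker sums and total counts were chosen after the data were seen.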

Additional observations from a re-analysis of the deposited data

Results flagged for a closer look

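The Ccnd1 level of 1 PS2APP;Trem2wt female, 13.7 nRPKM, lay far from the other 6 mice of its group, of which the nearest had 6.99 nRPKM. The gap was 0.770 of the group's whole range, above the 95% critical value of 0.568 for 7 samples. It was the only such value among the 20 groups of values tested, and chance gives about 1 in 20. Without this mouse the log2 fold change of Ccnd1 moved from -0.28 to -0.044.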

How the results depend on the processing

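No paired analysis was possible because the labels do not say which mice were handled together, although the methods state that mice were generally handled in pairs of 1 per genotype. Of the 10 genes, 1 was called lower in each setting except females alone, where 0 were (Ccna2: adjusted p = 0.0587 from edgeR with 5 mice per group). Over the analyses that left out 1 mouse, the log2 fold change of Ccna2 was -1.06 to -0.84. Its adjusted p from edgeR was 0.0458 without both Trem2wt replicates 1 and 2, the 2 mice that stood apart. Replicate 1 had the Ccnd1 level of 13.7 nRPKM, and replicate 2 had the highest neutrophil marker sum, 246 nRPKM. No gene of the 10 was called higher in any setting. Genes with changes near 0 changed sign: Ccnd3 to 0.061 in females and 0.0089 without the 2 mice that stood apart (-0.089 to 0.032 with 1 mouse left out), Cdk4 to 0.00012 with no filter (-0.035 to 0.018), Cdk6 to 0.0059 without the 2 mice, and Rb1 to -0.0053 with voom+limma, -0.040 in females and -0.052 without the 2 mice (-0.038 to 0.083). Cdk2 ranged from -0.046 to 0.00033 with 1 mouse left out. Among other cell cycle control genes, 1 (Cdk1) was lower with sex as covariate; 0 were higher in females, 0 without the 2 mice, and 0 to 1 with 1 mouse left out. The lower genes of the p53 list numbered 1 with voom+limma, with sex as covariate, on either log2(nRPKM) scale and without the 2 mice. They numbered 2 with DESeq2 and in females, and 0 to 1 with 1 mouse left out. The higher ones numbered 1 with voom+limma, RLE scaling, sex as covariate and females, 2 with DESeq2, and 0 to 1 with 1 mouse left out. DESeq2 called 1 proliferation marker lower. Over all genes, DESeq2 called 851 and edgeR 348. The causes were not tested. Intervals for Ccnd2 remain wide at its depth of 72 to 708 counts per mouse.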

Other observations

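Centred on genotype means over the 13 mice, Cdkn2c was lower where the total count was higher (Pearson's r = -0.76, permutation p = 0.00554, adjusted 0.249 over 90 relations; Spearman's rho = -0.69, permutation p = 0.0181, adjusted 0.499). Without the 2 mice farthest from the median of Cdkn2c, r was -0.54. Total counts had a median of 35201380 in Trem2wt and 55371730 in Trem2ko mice. The part of depth in the lower Cdkn2c level of Trem2ko mice was not tested. None of the 90 relations between the 10 genes and marker sums or total counts passed after adjustment, and this comparison was chosen after the data were seen.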
